A study of Rattus norvegicus with 17 samples.

Results

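The genes described here encode the translation initiation factors, whose symbols begin with Eif, and the translation elongation factors, whose symbols begin with Eef, together with the kinases, binding proteins and enzymes named after them. They were chosen by symbol alone and number 61 of the 11247 genes measured. Messenger RNA was sequenced from 17 libraries of rat primary cultures of cerebral cortex, which the labels describe as glutamatergic neurons with astrocytes. The cultures were infected to carry α-synuclein A53T, a variant of the presynaptic protein that is linked to inherited Parkinson's disease, or an empty vector. A53T cultures were given DMSO (2 libraries), 0.2 µM FK506 (3 libraries) or 2.0 µM FK506 (3 libraries), and vector cultures were given the same 3 treatments (3 libraries each). FK506, dissolved in DMSO, acts through its partner FKBP12 to block calcineurin, the phosphatase that calcium and calmodulin switch on. The promoter of the construct, the age of the cultures and the length of treatment are not given in the sources used here.

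Translation of most messages starts when eIF4E binds the cap, the eIF4G scaffold and the eIF4A helicase prepare the leader, and a small ribosomal subunit carrying eIF1, eIF1A, eIF3, eIF5 and eIF2 with the initiator tRNA scans to a start codon. The exchange factor eIF2B recharges eIF2 with GTP, and kinases that phosphorylate the α subunit of eIF2 block that exchange, which lowers general initiation while favouring a few messages such as Atf4. In elongation, eEF1A brings aminoacyl-tRNA to the ribosome and eEF2 moves the ribosome along. In neurons the kinase eEF2K, which calcium and calmodulin activate, phosphorylates eEF2 and slows that step.

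Promoter sequences were matched for 55 of the 61 genes in RefSeq (build GRCr8), and the 250 bases before each start were searched on both strands for CACGTG (the E-box), TGACGTCA (the cyclic AMP response element) and TGATGNAA (the element that C/EBP-ATF pairs bind). CACGTG was found in 9 of the 55 promoters (16.4%), against 6.18% of the 27457 genes with a RefSeq promoter, which include genes not measured here. TGACGTCA was found in 1 (1.82%, against 1.78% of all) and TGATGNAA in 2 (3.64%, against 3.58% of all), and no site overlapped another. The 100 bases before the start are printed for 4 genes with CACGTG, each 5′ to 3′ on the strand of its gene. These 4 were picked with their values known, as genes whose RNA moved differently. Capitals mark the matched motifs, and Eef2 (chr7:9189239-9189338, minus strand) holds both CACGTG and TGACGTCA. The others are Eif1b (chr8:129081058-129081157, plus strand), Eif4e (chr2:229740653-229740752, plus strand) and Eif3f (chr1:172368962-172369061, plus strand). Eif4e holds a further CACGTG at -237 to -232 from its start, outside the printed bases.
Eef2: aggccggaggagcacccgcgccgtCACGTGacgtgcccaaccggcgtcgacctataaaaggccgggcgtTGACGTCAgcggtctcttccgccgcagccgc
Eif1b: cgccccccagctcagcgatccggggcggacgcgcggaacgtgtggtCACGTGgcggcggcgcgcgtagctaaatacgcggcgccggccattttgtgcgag
Eif4e: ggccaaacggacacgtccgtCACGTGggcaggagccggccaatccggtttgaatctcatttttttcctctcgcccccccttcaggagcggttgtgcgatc
Eif3f: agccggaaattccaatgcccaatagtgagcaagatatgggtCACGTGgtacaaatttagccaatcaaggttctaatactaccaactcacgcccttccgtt
At 2.0 µM FK506, Eef2 and Eif1b rose in both cultures, Eif4e passed the test in no comparison, and Eif3f passed it only at 0.2 µM in A53T cultures. Of the 9 genes with CACGTG, 2 rose at 2.0 µM in A53T cultures and 3 rose in vector cultures, beside 19.7% and 23.4% of all genes, and none fell, beside 17.9% and 23.8% lower. So few genes are a description only. A match describes letters and does not show that a factor binds there.

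The deposited values are normalized gene counts of the authors, with totals from 15091428 to 18335540 per library. Raw read depth is unknown, and counting intervals are therefore left out. The A53T libraries at 0.2 µM (3 in number) differed from each other by 0.995 to 1.05 times sampling noise, against 1.48 to 14.5 times between libraries of the other groups, and were counted as 1 sample. These ratios take the normalized values as counts, so unknown scaling limits them too. Whether the 3 are separate libraries or the same library repeated cannot be told from the values. Every p-value for 0.2 µM in A53T cultures therefore rests on an arm of 1 sample that is assumed to vary like the other groups. A library of A53T in DMSO carries different numbers in the labels and in the table and is called the unnumbered library. A further 3 libraries stood apart from their own groups, namely A53T at 2.0 µM replicate 1, vector at 2.0 µM replicate 2 and vector at 0.2 µM replicate 1. Of the marker lists, 11 of 12 pan-neuronal, 7 of 7 glutamatergic and 10 of 10 astrocyte genes were measured in every group, and 9 microglial genes were not analysed here. No source states that replicate libraries derive from different cultures. The p-values therefore reflect the spread among these libraries alone, which may be technical. Fold changes are log2 differences of value + 1, given with their standard error, and each adjusted p is from limma with the Benjamini-Hochberg method over all 11247 genes. "Rose" and "fell" stand for an adjusted p under 0.05.

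More of the genes rose than fell at 2.0 µM FK506 in both cultures. In A53T cultures 26 rose and 3 fell against DMSO, which is 42.6% and 4.92% of the 61, beside 19.7% and 17.9% of all genes. In vector cultures 26 rose and 2 fell, which is 42.6% and 3.28%, beside 23.4% and 23.8% of all genes. The median log2 fold change of the 61 was 0.27 in A53T cultures and 0.19 in vector cultures, against 0.01 and 0 over all genes. Of the 26 genes that rose in each culture, 16 were the same genes (61.5% of each list), and Eif4g3 was the only gene that fell in both. The count in A53T cultures rests on the 2 DMSO libraries. Without either, the remaining library is assumed to vary like those of the other groups, and far fewer genes passed, of the 61 and of all genes. Without the unnumbered library the share of the 61 that rose was no larger than that of all genes. The median log2 fold change of the 61 was 0.27 without replicate 1 and 0.28 without the unnumbered library, against 0.01 over all genes. Without the 3 libraries that stood apart, 40 rose and 3 fell in A53T cultures, beside 25% and 23.3% of all genes. In vector cultures 33 rose and 6 fell, beside 30.9% and 30.4% of all genes, so calls became more frequent over all genes as well.

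At 0.2 µM FK506 most of the genes were lower in A53T cultures. There 34 fell and 11 rose against DMSO, with the treated arm counted as 1 sample, which is 55.7% and 18%, beside 34.4% and 33.5% of all genes. The median log2 fold change of the 61 was -0.37, against -0.01 over all genes. Under quantile normalization 35 fell and 14 rose, beside 42.8% and 29.2% of all genes. In vector cultures 2 rose and 1 fell, which is 3.28% and 1.64%, beside 7.7% and 10.6% of all genes, with a median of -0.05 against 0. That count rests on the libraries that stood apart: without all 3 of them 7 genes rose and 27 fell, beside 25.1% and 27.4% of all genes. Without A53T at 2.0 µM replicate 1 alone, 5 rose and 3 fell, beside 11.5% and 15.3% of all genes. Without vector at 0.2 µM replicate 1 alone, 3 rose and 5 fell, beside 10.4% and 15.6% of all genes.

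Between the doses in vector cultures, 25 genes rose and 2 fell at 2.0 µM against 0.2 µM, which is 41% and 3.28%, beside 18% and 15.7% of all genes. In DMSO 3 genes were higher and 2 lower in A53T than in vector cultures, beside 5.85% and 8.19% of all genes. Leaving out any single vector DMSO library left 2 of these 5 calls, beside 3.37% to 3.81% higher and 5.15% to 5.89% lower of all genes. Without either A53T DMSO library, which leaves 1 in that group, most of these calls were also lost. Without the 3 libraries that stood apart 14 were higher and 8 lower, beside 18.9% and 20.1% of all genes. At 2.0 µM 6 were higher and 1 lower, beside 9.88% and 9.7% of all genes. Without vector at 2.0 µM replicate 3, 2 were higher and none lower, beside 5.92% and 5.89% of all genes. Without vector at 0.2 µM replicate 1, 10 were higher and 2 lower, beside 11.8% and 11.4% of all genes. Without the 3 libraries that stood apart 15 were higher and 4 lower, beside 16.6% and 16.8% of all genes. The response to 2.0 µM itself differed between A53T and vector cultures for 3 genes, 1 with a higher and 2 with a lower fold change in A53T, beside 8.14% and 6.45% of all genes. None of the 3 passed without A53T in DMSO replicate 1.

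**Figure D1:**
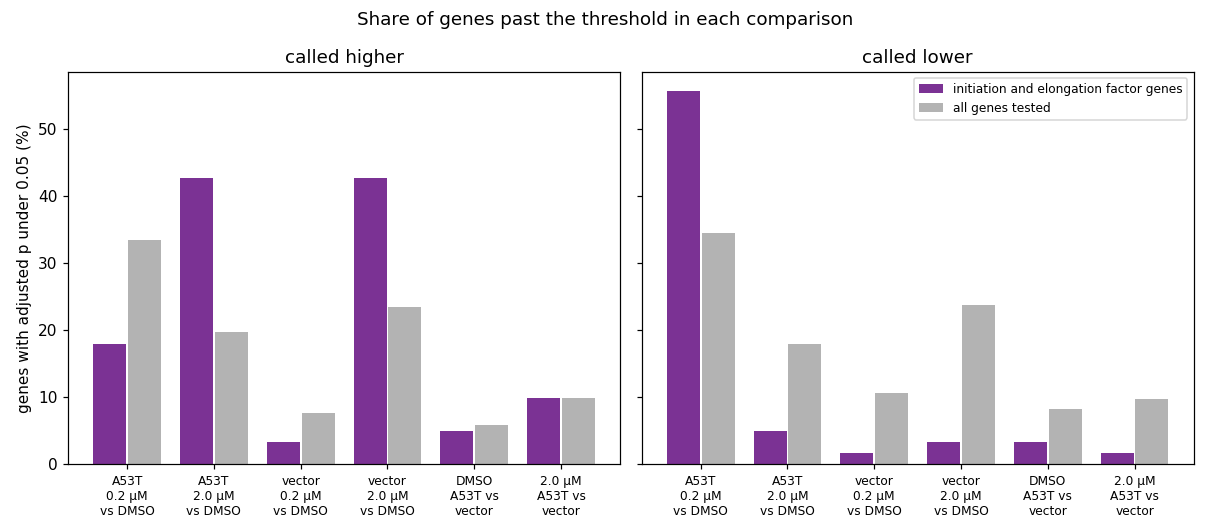
Share of genes (%) with an adjusted p under 0.05 in each of 6 comparisons, called higher in the left panel and lower in the right panel, for the 61 initiation and elongation factor genes (purple) and all 11247 genes tested (grey). The purple bar is the taller among higher calls at 2.0 µM in both cultures (42.6%) and among lower calls at 0.2 µM in A53T cultures (55.7%).

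**Figure D2:**
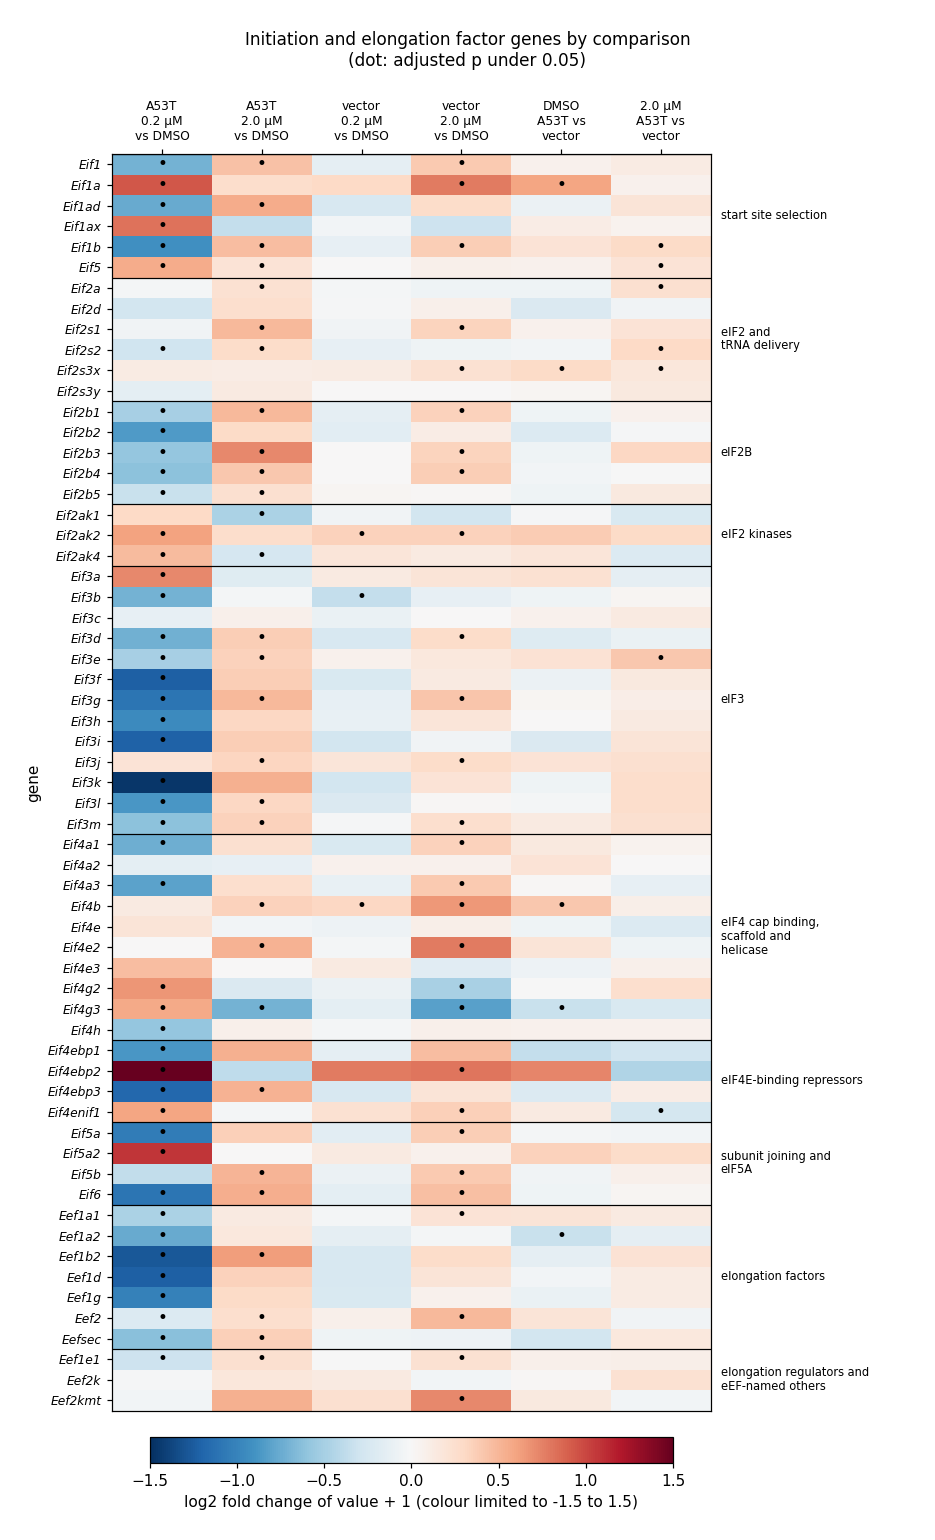
Log2 fold change of each of the 61 genes (rows, grouped by role) in 6 comparisons (columns), with red higher and blue lower in the group named first and a dot at an adjusted p under 0.05. The 0.2 µM column of A53T cultures holds 45 dots and the same column of vector cultures 3, and the eIF2B, eIF3 and elongation factor blocks are mostly blue at 0.2 µM and red at 2.0 µM in A53T cultures.

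Here 6 genes were grouped under start site selection, Eif1ad among them. At 2.0 µM 4 of the 6 rose in A53T cultures and 3 in vector cultures, beside 19.7% and 23.4% of all genes. None fell, beside 17.9% and 23.8% of all genes. A place in a role group is descriptive and does not show that a gene acts there. Eif1 encodes the factor that keeps scanning ribosomes from starting at poor codons. It had 23390, 19897 and 19790 normalized counts at 2.0 µM in A53T cultures, against 15981 and 14976 in DMSO. Vector cultures had 19152, 20732 and 18020 at 2.0 µM, against 14009, 15546 and 14597 in DMSO. The 2.0 µM libraries lay above the DMSO libraries in both cultures without overlap. The log2 fold change was 0.44 ± 0.11 (adjusted p = 0.0089) in A53T cultures, a call lost without the unnumbered library (adjusted p = 0.085), and 0.39 ± 0.10 (adjusted p = 0.0054) in vector cultures. In A53T cultures at 0.2 µM Eif1 had 9512, 9399 and 9410, the lowest values of the 17 libraries, and fell by 0.71 ± 0.15 (adjusted p = 0.0011). Eif1b, a close copy of Eif1, followed the same course, with 0.46 ± 0.11 at 2.0 µM and -0.92 ± 0.14 at 0.2 µM in A53T cultures and 0.37 ± 0.09 at 2.0 µM in vector cultures. Its call at 2.0 µM in A53T cultures was also lost without the unnumbered library (adjusted p = 0.055). Reads of such near-identical copies could be split by the authors' counting, so the values of Eif1 and Eif1b, of Eif1a and Eif1ax, of Eif2s3x and Eif2s3y, of Eif4a1 and Eif4a2, and of Eef1a1 and its pseudogenes are uncertain to that extent.

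Eif1a and Eif1ax encode forms of eIF1A, which works beside eIF1 in scanning, and they did not follow Eif1. In A53T cultures Eif1a had 659 and 648 normalized counts in DMSO, 1233, 1246 and 1262 at 0.2 µM, and 614, 849 and 916 at 2.0 µM. Its vector values were 435, 422 and 443 in DMSO, 467, 551 and 594 at 0.2 µM, and 799, 652 and 789 at 2.0 µM. The vector libraries in DMSO were the lowest of all, and the A53T libraries at 0.2 µM the highest. Eif1a rose at 2.0 µM in vector cultures (0.78 ± 0.14, adjusted p = 0.00049) and at 0.2 µM in A53T cultures (0.93 ± 0.21, adjusted p = 0.0017), and its value of 0.26 ± 0.15 at 2.0 µM in A53T cultures did not pass (adjusted p = 0.19). In DMSO it was higher in A53T than in vector cultures (0.59 ± 0.15, adjusted p = 0.022), a call lost when any library of either DMSO group was left out (adjusted p 0.055 to 0.15). Eif1ax rose only at 0.2 µM in A53T cultures (0.82 ± 0.20, adjusted p = 0.0032), with 1958, 2029 and 1924 against 1176 and 1057 in DMSO. At 2.0 µM it had log2 fold changes of -0.36 in A53T cultures and -0.31 in vector cultures, neither past the threshold. Eif5, the factor that triggers GTP hydrolysis on eIF2 at the start codon, had 6392, 6436 and 6383 at 0.2 µM in A53T cultures, against 4489 and 4176 in DMSO, and rose by 0.56 ± 0.10 (adjusted p = 0.00032).

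The 6 genes of eIF2 and initiator tRNA delivery gave 3 rises at 2.0 µM in A53T cultures and 2 in vector cultures. Of all genes 19.7% and 23.4% rose. Eif2s1 encodes the α subunit, the target of the eIF2 kinases. It had 2654, 2485 and 2360 normalized counts at 2.0 µM in A53T cultures, against 1815 and 1746 in DMSO. Among vector libraries it had 2111, 2187 and 2161 at 2.0 µM, against 1670, 1807 and 1652 in DMSO. The groups did not overlap in either culture, the log2 fold changes were 0.49 ± 0.09 (adjusted p = 0.0021) in A53T cultures and 0.33 ± 0.08 (adjusted p = 0.0058) in vector cultures, and both calls held when any single library was left out. With 0.2 µM in A53T cultures, Eif2s1 had 1723, 1725 and 1701 and did not pass (-0.05 ± 0.13, adjusted p = 0.72).

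Eif2s2 encodes the β subunit of eIF2 and is 1 of the 3 genes whose response differed between the cultures. It had 3685, 3562 and 3609 normalized counts at 2.0 µM in A53T cultures, against 3005 and 2984 in DMSO. In vector cultures it had 3005, 2981 and 2858 at 2.0 µM, against 2971, 3172 and 3066 in DMSO. The 2.0 µM libraries lay above DMSO in A53T cultures and overlapped DMSO in vector cultures. The log2 fold change was 0.27 ± 0.06 (adjusted p = 0.0065) in A53T cultures, a call lost without the unnumbered library (adjusted p = 0.055), and -0.06 ± 0.06 (adjusted p = 0.44) in vector cultures. Eif2s3x, the X-linked gene of the γ subunit, had 4407 and 4281 in A53T cultures in DMSO, against 3556, 3711 and 3418 in vector cultures in DMSO. It was higher in A53T by 0.29 ± 0.05 (adjusted p = 0.0035), a call lost without A53T in DMSO replicate 1 (adjusted p = 0.059), and it rose at 2.0 µM in vector cultures by 0.23 ± 0.05 (adjusted p = 0.0012). Its Y-linked copy Eif2s3y ranged from 1136 to 1427 over all libraries and passed in no comparison. Eif2a, a separate initiator tRNA carrier and no subunit of eIF2, was higher at 2.0 µM in A53T than in vector cultures by 0.24 ± 0.06 (adjusted p = 0.022), with 963, 987 and 1039 against 891, 861 and 788. That call was lost without A53T at 2.0 µM replicate 2 or 3 or vector at 2.0 µM replicate 3 (adjusted p up to 0.097).

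All 5 subunit genes of the exchange factor eIF2B fell at 0.2 µM in A53T cultures, beside 34.4% of all genes. The log2 fold changes of the 5 ran from -0.85 to -0.33. At 2.0 µM 4 of them rose in A53T cultures and 3 in vector cultures, beside 19.7% and 23.4% of all genes. Eif2b3, a subunit of the catalytic part of the complex, had 2287, 1811 and 1818 normalized counts at 2.0 µM in A53T cultures, against 1166 and 1217 in DMSO. Vector cultures had 1490, 1780 and 1482 at 2.0 µM, against 1178, 1189 and 1406 in DMSO. The 2.0 µM libraries lay above the DMSO libraries in each culture, and in each the library that stood apart was the highest. The log2 fold change was 0.72 ± 0.14 (adjusted p = 0.0024) in A53T cultures and 0.33 ± 0.13 (adjusted p = 0.047) in vector cultures, the second lost on leaving out any of 9 libraries (adjusted p up to 0.17). At 0.2 µM in A53T cultures Eif2b3 had 772, 781 and 833, below every other library (-0.58 ± 0.19, adjusted p = 0.016), a call lost without the unnumbered library (adjusted p = 0.056).

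Eif2b5 encodes the catalytic subunit itself and moved less. It had 2167, 1793 and 1850 normalized counts at 2.0 µM in A53T cultures, against 1571 and 1700 in DMSO, and 1294, 1289 and 1311 at 0.2 µM. Its vector values were 1709, 1793 and 1724 at 2.0 µM, against 1714, 1697 and 1743 in DMSO. The vector groups overlapped (0.02 ± 0.08, adjusted p = 0.85), while in A53T cultures the gene rose at 2.0 µM by 0.24 ± 0.09 (adjusted p = 0.043), a call that leaving out any of 9 libraries ended (adjusted p up to 0.24). Without the 3 libraries that stood apart the rise was 0.16 (adjusted p = 0.027). The fall at 0.2 µM in A53T cultures was 0.33 ± 0.11 (adjusted p = 0.021) and was lost without the unnumbered library (adjusted p = 0.098). The other 3 subunit genes, named here after their values were seen, had log2 fold changes at 2.0 µM in A53T cultures of 0.49 for Eif2b1, 0.40 for Eif2b4 and 0.29 for Eif2b2, the last not past the threshold.

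The 3 eIF2 kinase genes analysed here are not all of that family. Of the 3, 2 fell and none rose at 2.0 µM in A53T cultures, beside 17.9% and 19.7% of all genes. In vector cultures 1 rose and none fell, beside 23.4% and 23.8% of all genes. At 0.2 µM in A53T cultures the log2 fold changes of the 3 kinase genes ran from 0.30 to 0.60. Eif2ak2 encodes PKR, which double-stranded RNA activates. Among vector libraries it had 400, 387 and 380 normalized counts in DMSO, 499, 477 and 515 at 0.2 µM, and 520, 418 and 556 at 2.0 µM. All treated vector libraries exceeded those in DMSO, and Eif2ak2 rose at 0.2 µM (0.35 ± 0.11, adjusted p = 0.044) and at 2.0 µM (0.34 ± 0.11, adjusted p = 0.021) by about the same amount. Neither call held throughout when single libraries were left out (10 libraries ended the first and 4 the second): adjusted p reached 0.14 at 0.2 µM without vector at 0.2 µM replicate 3, and 0.096 at 2.0 µM without vector at 2.0 µM replicate 3. In A53T cultures at 0.2 µM Eif2ak2 had 788, 735 and 783, against 499 and 513 in DMSO (0.60 ± 0.17, adjusted p = 0.0063). Eif2ak1 encodes the kinase HRI, which responds to low heme. It had 498, 698 and 780 at 2.0 µM in A53T cultures, against 853 and 951 in DMSO, and the library that stood apart was the lowest. It fell by 0.48 ± 0.15 (adjusted p = 0.027), and by 0.29 (adjusted p = 0.004) without the 3 libraries that stood apart, and the call was lost without either DMSO library (adjusted p up to 0.18) or without A53T at 2.0 µM replicate 1 alone. Its value at 0.2 µM in A53T cultures did not pass (0.30 ± 0.20, adjusted p = 0.21). Eif2ak4, the amino acid sensor GCN2, had 449, 483 and 530 at 2.0 µM in A53T cultures, against 551 and 606 in DMSO (-0.25 ± 0.09, adjusted p = 0.046). That call was lost without the 3 libraries that stood apart (-0.19, adjusted p = 0.086) and without any of 10 single libraries. At 0.2 µM Eif2ak4 had 792, 796 and 827 in A53T cultures, against the same DMSO libraries, a log2 fold change of 0.48 ± 0.12. With any single library left out the change ran from 0.41 to 0.55. That cannot test the treated arm, which counts as 1 sample and was never left out whole.

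Genes that act back on eIF2 phosphorylation or are its targets were taken from 1 list of 14, of which 13 were measured. At 2.0 µM 9 of the 13 rose in A53T cultures and 8 in vector cultures, beside 19.7% and 23.4% of all genes. At 0.2 µM in vector cultures 5 rose, beside 7.7% of all genes. None fell in these 3 comparisons, beside 17.9%, 23.8% and 10.6% of all genes. At 0.2 µM in A53T cultures the 13 went both ways, with a median log2 fold change of 0.23, against -0.01 over all genes. Atf3, a stress transcription factor, rose at 2.0 µM by 1.08 ± 0.12 in A53T cultures and by 2.30 ± 0.11 in vector cultures. Ppp1r15a, which encodes the phosphatase subunit that removes the phosphate from eIF2, rose by 0.87 ± 0.09 in A53T cultures and by 1.42 ± 0.08 in vector cultures. At 2.0 µM the median log2 fold change of the 13 was 0.62 in A53T cultures and 0.43 in vector cultures, against 0.01 and 0 over all genes. In DMSO 4 of the 13 were higher in A53T than in vector cultures and none was lower, beside 5.85% and 8.19% of all genes. Atf3 was higher there by 1.05 ± 0.12 (adjusted p = 0.00023).

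eIF3 is the largest initiation factor and bridges the small subunit to eIF4G. Of its 13 subunit genes 6 rose at 2.0 µM in A53T cultures and 4 in vector cultures, beside 19.7% and 23.4% of all genes. None fell, beside 17.9% and 23.8% of all genes. After 0.2 µM in A53T cultures, 10 fell and Eif3a alone rose, beside 34.4% and 33.5% of all genes. Eif3a, the large core subunit, had 6685, 6474 and 6600 normalized counts there, against 3887 and 4130 in DMSO (0.72 ± 0.15, adjusted p = 0.0014). Eif3k, a small peripheral subunit, had 791, 824 and 863, against 2317 and 2227 in DMSO. Eif3f had 3083, 3146 and 3218, against 7558 and 7252 in DMSO. These were the lowest values of Eif3k and Eif3f in the 17 libraries, with log2 fold changes of -1.46 ± 0.29 (adjusted p = 0.00078) and -1.23 ± 0.21 (adjusted p = 0.00036). At 2.0 µM Eif3k did not pass in either culture. In vector cultures it had 2529, 3418 and 2421, which overlapped 2235, 2336 and 2621 in DMSO (0.2 ± 0.19, adjusted p = 0.41). The highest of the treated vector values was the library that stood apart. It had 4503, 2977 and 2653 in A53T cultures, against 2317 and 2227 in DMSO (0.53 ± 0.21, adjusted p = 0.064), and the highest of these was the library that stood apart.

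Eif3b, the scaffold subunit beside Eif3a, was the only gene of the 61 that fell at 0.2 µM in vector cultures. It had 3055, 2797 and 2870 normalized counts there, against 3690, 3722 and 3748 in DMSO, and 3340, 3591 and 3313 at 2.0 µM. The 0.2 µM libraries lay below the other vector libraries without overlap (-0.36 ± 0.06 against DMSO, adjusted p = 0.0015), and the gene was higher at 2.0 µM than at 0.2 µM by 0.23 ± 0.06 (adjusted p = 0.0071). In A53T cultures at 0.2 µM it had 2158, 2174 and 2178, against 3644 and 3450 in DMSO (-0.71 ± 0.08, adjusted p = 3.6e-05). Eif3e, a subunit that links eIF3 to other regulatory complexes, had 5551, 5506 and 5201 at 2.0 µM in A53T cultures, against 4123, 4052 and 4107 at 2.0 µM in vector cultures. It was higher in A53T by 0.40 ± 0.09 (adjusted p = 0.0077), and this call held when any single library was left out.

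Under cap binding, scaffold and helicase 10 genes were grouped. Of these 2 rose and 1 fell at 2.0 µM in A53T cultures, beside 19.7% and 17.9% of all genes. In vector cultures 4 rose and 2 fell, beside 23.4% and 23.8% of all genes. Eif4e itself, the cap-binding protein, passed in no comparison. It had 1437, 1842 and 1875 normalized counts at 2.0 µM in A53T cultures, against 1774 and 1723 in DMSO (-0.04 ± 0.09, adjusted p = 0.78). In vector cultures it had 1970, 1894 and 2001 at 2.0 µM, against 1816, 1896 and 1794 in DMSO (0.09 ± 0.08, adjusted p = 0.40). The groups overlapped in both cultures. Eif4e2 encodes 4EHP, a relative that binds the cap but not eIF4G and serves in repression of bound messages. It had 704, 608 and 649 at 2.0 µM in A53T cultures, against 440 and 467 in DMSO. Vector cultures had 664, 734 and 663 at 2.0 µM, against 410, 367 and 420 in DMSO. The 6 libraries at 2.0 µM were the highest of the 17. Eif4e2 rose by 0.52 ± 0.09 (adjusted p = 0.0014) in A53T cultures and by 0.78 ± 0.08 (adjusted p = 9.7e-06) in vector cultures. At 0.2 µM the differences were 0 ± 0.13 and -0.03 ± 0.08, and in vector cultures the gene was higher at 2.0 µM than at 0.2 µM by 0.82 ± 0.08 (adjusted p = 2.6e-05).

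Eif4b encodes a cofactor of the eIF4A helicase that S6 kinase phosphorylates, and its vector groups stood in the order of the doses. Its vector values were 5700, 5728 and 5803 normalized counts in DMSO, 7126, 6992 and 7298 at 0.2 µM, and 8958, 9113 and 8990 at 2.0 µM. In A53T cultures it had 7727 and 7467 in DMSO, 8340, 8309 and 8376 at 0.2 µM, and 9823, 9140 and 9917 at 2.0 µM. No 2 groups of the same culture overlapped, and the A53T libraries in DMSO lay above all vector libraries in DMSO and at 0.2 µM. At 2.0 µM it rose by 0.34 ± 0.05 (adjusted p = 0.0004) in A53T cultures and by 0.65 ± 0.05 (adjusted p = 3.3e-07) in vector cultures, and at 0.2 µM in vector cultures it rose by 0.31 ± 0.05 (adjusted p = 0.00091). In DMSO it was higher in A53T than in vector cultures by 0.40 ± 0.05 (adjusted p = 0.00039). The fold change at 2.0 µM was lower in A53T than in vector cultures by 0.31 ± 0.07 on the log2 scale (adjusted p = 0.011), a difference lost without A53T in DMSO replicate 1 (adjusted p = 0.066). The other 4 calls held when any single library was left out.

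Eif4g3 encodes the scaffold eIF4GII and was the gene with the largest fall at 2.0 µM in both cultures. In A53T cultures it had 1641 and 1794 normalized counts in DMSO, 2636, 2483 and 2542 at 0.2 µM, and 980, 1124 and 1054 at 2.0 µM. Among vector libraries it had 2206, 2245 and 2045 in DMSO, 1708, 2163 and 1998 at 0.2 µM, and 1241, 1163 and 1309 at 2.0 µM. The 2.0 µM libraries of both cultures were the 6 lowest, and those of A53T at 0.2 µM the 3 highest. At 2.0 µM it fell by 0.71 ± 0.10 (adjusted p = 0.00025) in A53T cultures and by 0.81 ± 0.09 (adjusted p = 9.8e-06) in vector cultures, and both calls held when any single library was left out. With 0.2 µM in A53T cultures, it rose by 0.57 ± 0.13 (adjusted p = 0.0021), and in DMSO it was lower in A53T than in vector cultures (-0.33 ± 0.10, adjusted p = 0.039). The last call was lost on leaving out any of 7 libraries, the 5 in DMSO among them (adjusted p up to 0.29), and under quantile normalization (adjusted p = 0.10). Eif4g2 encodes DAP5, a scaffold without a site for eIF4E. It had 6010, 5055 and 6443 at 2.0 µM in vector cultures, against 8234, 8673 and 7561 in DMSO, and fell by 0.49 ± 0.12 (adjusted p = 0.0046), though not under quantile normalization (-0.36, adjusted p = 0.06). In A53T cultures at 2.0 µM it did not pass (-0.22 ± 0.13, adjusted p = 0.20), and at 0.2 µM it rose by 0.66 ± 0.18 (adjusted p = 0.0059). The third scaffold gene, Eif4g1, was not analysed here.

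The helicase genes Eif4a1 and Eif4a2 encode near-identical proteins and had different values. Eif4a1 had 15710, 12957 and 13074 normalized counts at 2.0 µM in A53T cultures, against 11733 and 11681 in DMSO (0.24 ± 0.10, adjusted p = 0.076). In vector cultures it had 12933, 14904 and 12386 at 2.0 µM, against 10211, 10804 and 10737 in DMSO, and rose by 0.34 ± 0.09 (adjusted p = 0.0086). The libraries at 2.0 µM lay above DMSO in each culture, and those that stood apart were the highest. At 0.2 µM in A53T cultures Eif4a1 had 7011, 6979 and 7113 and fell by 0.73 ± 0.14 (adjusted p = 0.00056). Eif4a2 stayed between 7940 and 10123 in all 17 libraries and passed in no comparison. The log2 ratio of Eif4a2 to Eif4a1, which depends on transcript length and can be read only as a difference between groups, averaged -0.25 in DMSO, 0.34 at 0.2 µM and -0.61 at 2.0 µM in A53T cultures, and -0.30, 0 and -0.57 in vector cultures. The ranges of the ratio at 0.2 µM (0.33 to 0.35 in A53T and -0.09 to 0.09 in vector cultures) did not overlap those of any other group of the same culture.

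**Figure D3:**
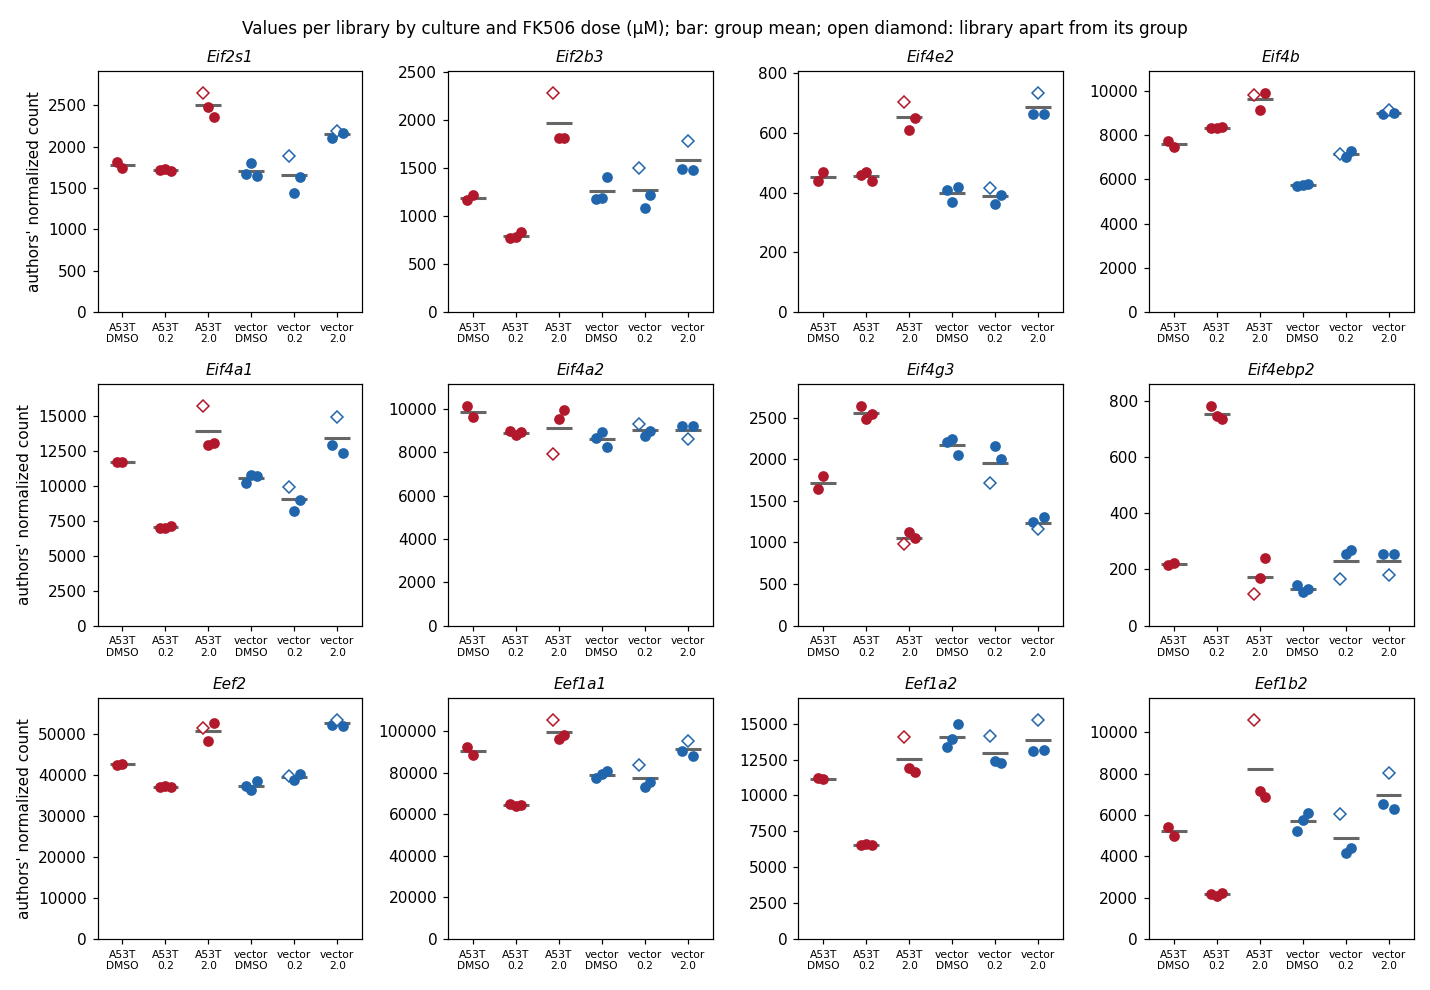
Authors' normalized count of 12 genes in each library (points; open diamonds mark the 3 libraries that stood apart) by culture and FK506 dose in µM, with the group mean as a bar and A53T in red, vector in blue. Eif4g3 is lowest and Eif4e2 highest at 2.0 µM in both cultures, while Eif4ebp2 is highest and Eef1b2 lowest at 0.2 µM in A53T cultures.

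Of the 4 repressor genes that bind eIF4E, 2 fell and 2 rose at 0.2 µM in A53T cultures, beside 34.4% and 33.5% of all genes. Eif4ebp2 encodes the 4E-BP that is most abundant in brain and that mTOR phosphorylation releases from eIF4E. In A53T cultures it had 214 and 221 normalized counts in DMSO, 780, 745 and 733 at 0.2 µM, and 113, 170 and 240 at 2.0 µM. Vector cultures had 145, 118 and 130 in DMSO, 165, 253 and 270 at 0.2 µM, and 255, 179 and 256 at 2.0 µM. The A53T libraries at 0.2 µM lay far above all others, and in each treated group with a library that stood apart, that library was the lowest. Eif4ebp2 rose by 1.79 ± 0.38 (adjusted p = 0.0013) at 0.2 µM in A53T cultures, the largest change of the 61 genes, and by 0.80 ± 0.25 (adjusted p = 0.021) at 2.0 µM in vector cultures, a call lost without vector in DMSO replicate 2 or 3 or vector at 2.0 µM replicate 1 or 3 (adjusted p up to 0.072). At 0.2 µM in vector cultures it missed the threshold (0.78 ± 0.25, adjusted p = 0.051), as did its value at 2.0 µM in A53T cultures (-0.38 ± 0.28, adjusted p = 0.29). Eif4ebp1, the 4E-BP of most other tissues, had 150, 129 and 139 at 0.2 µM in A53T cultures, against 261 and 251 in DMSO, and fell by 0.87 ± 0.33 (adjusted p = 0.03), a call lost without either DMSO library (adjusted p up to 0.083). At 2.0 µM it had 502, 321 and 313 in A53T cultures, against 261 and 251 in DMSO, without passing (0.53 ± 0.24, adjusted p = 0.10).

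Eif4enif1 encodes 4E-T, which carries eIF4E into processing bodies and the nucleus. It had 804, 934 and 936 normalized counts at 2.0 µM in A53T cultures, against 874 and 945 in DMSO. Its vector values were 1101, 1003 and 1092 at 2.0 µM, against 880, 843 and 774 in DMSO. The A53T groups overlapped (-0.03 ± 0.09, adjusted p = 0.80) and the vector groups did not (0.36 ± 0.08, adjusted p = 0.0028). In A53T cultures at 0.2 µM it had 1361, 1342 and 1405 and rose by 0.59 ± 0.12 (adjusted p = 0.001).

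Eif6, which keeps the large subunit from joining too early, and Eif5a, whose hypusine residue helps ribosomes over difficult peptide bonds, both fell at 0.2 µM in A53T cultures, and at 2.0 µM Eif6 rose in both cultures and Eif5a in vector cultures. Eif6 had 5490, 3681 and 3841 normalized counts at 2.0 µM in A53T cultures, against 2974 and 2875 in DMSO. Among vector libraries it had 3960, 4939 and 3746 at 2.0 µM, against 2851, 2976 and 3353 in DMSO. The groups did not overlap, and the highest library in each treated group was the one that stood apart. Eif6 rose by 0.54 ± 0.17 (adjusted p = 0.023) in A53T cultures and by 0.45 ± 0.15 (adjusted p = 0.023) in vector cultures, and by 0.36 and 0.34 without the 3 libraries that stood apart. The A53T call was lost without either DMSO library or without A53T at 2.0 µM replicate 1 alone (adjusted p up to 0.12), and the vector call without vector in DMSO replicate 1 or 2 or vector at 2.0 µM replicate 2 (adjusted p up to 0.098). With 0.2 µM in A53T cultures, Eif6 had 1423, 1350 and 1361 and fell by 1.09 ± 0.22 (adjusted p = 0.001).

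Eif5a had 18665, 14258 and 14293 normalized counts at 2.0 µM in A53T cultures, against 12299 and 12054 in DMSO (0.36 ± 0.14, adjusted p = 0.059). In vector cultures it had 15328, 18566 and 14507 at 2.0 µM, against 11701, 12677 and 12908 in DMSO, and rose by 0.37 ± 0.12 (adjusted p = 0.027), a call lost without vector in DMSO replicate 1 or 2 or vector at 2.0 µM replicate 2 (adjusted p up to 0.11). At 0.2 µM in A53T cultures it had 5931, 5907 and 5835, the lowest of the 17, and fell by 1.05 ± 0.19 (adjusted p = 0.00043). Eif5a2, the second eIF5A gene, moved the other way there. It had 1544, 1546 and 1455 at 0.2 µM in A53T cultures, against 721 and 720 in DMSO, and rose by 1.07 ± 0.22 (adjusted p = 0.0012). The log2 ratio of Eif5a2 to Eif5a was -2 to -1.93 at 0.2 µM in A53T cultures, against -4.09 to -4.07 in DMSO.

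All 7 elongation factor genes fell at 0.2 µM in A53T cultures, beside 34.4% of all genes, with log2 fold changes from -1.27 to -0.20. At 2.0 µM 3 rose in A53T and 2 in vector cultures, beside 19.7% and 23.4% of all genes. Under quantile normalization Eef1a1 and Eef2 did not fall at 0.2 µM in A53T cultures, as given with each gene. Eef2, the translocase, had 51386, 48192 and 52608 normalized counts at 2.0 µM in A53T cultures, against 42363 and 42725 in DMSO. Vector cultures had 52165, 53406 and 51948 at 2.0 µM, against 37384, 36216 and 38483 in DMSO. The 2.0 µM libraries were the 6 highest of the 17. Eef2 rose by 0.25 ± 0.06 (adjusted p = 0.0077) in A53T cultures and by 0.49 ± 0.05 (adjusted p = 1.3e-05) in vector cultures, and the difference between these did not pass (-0.24 ± 0.08, adjusted p = 0.07). The A53T call was lost without either DMSO library (adjusted p up to 0.06) and under quantile normalization (0.10, adjusted p = 0.50). In vector cultures it was higher at 2.0 µM than at 0.2 µM by 0.41 ± 0.05 (adjusted p = 0.00015), though not under quantile normalization (0.16, adjusted p = 0.22). In A53T cultures at 0.2 µM it had 37039, 37219 and 37087 and fell by 0.20 ± 0.08 (adjusted p = 0.049), a call that leaving out any of 11 libraries ended. Quantile normalization turned its direction (0.35, adjusted p = 0.043).

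Eef1a1 and Eef1a2 encode the tRNA carrier eEF1A, the second being the form of mature neurons and muscle. Eef1a1 had 105560, 96091 and 97964 normalized counts at 2.0 µM in A53T cultures, against 92182 and 88532 in DMSO (0.14 ± 0.08, adjusted p = 0.17). Its vector values were 90323, 95536 and 88095 at 2.0 µM, against 77272, 79346 and 80782 in DMSO (0.21 ± 0.07, adjusted p = 0.032), a call lost without any vector DMSO library or without vector at 2.0 µM replicate 1 or 2 (adjusted p up to 0.10). With 0.2 µM in A53T cultures, it had 65213, 63833 and 64623 and fell by 0.48 ± 0.11 (adjusted p = 0.0018). Under quantile normalization, which fixes a value by its rank, the difference at 0.2 µM in A53T cultures was 0 (adjusted p = 1) and that at 2.0 µM in vector cultures 0.49 (adjusted p = 6.8e-05). The treated libraries thus lay above DMSO at 2.0 µM and below it at 0.2 µM in A53T cultures. Eef1a2 had 11188 and 11134 in A53T cultures in DMSO, against 13350, 13932 and 14971 in vector cultures in DMSO. It was lower in A53T by 0.33 ± 0.10 (adjusted p = 0.041), a call lost on leaving out any of 9 libraries (adjusted p up to 0.19), and fell further at 0.2 µM in A53T cultures, to 6559, 6584 and 6575 (-0.76 ± 0.13, adjusted p = 0.00035). The log2 ratio of Eef1a2 to Eef1a1 ran from -3.31 to -2.91 over the 8 A53T libraries and from -2.79 to -2.43 over the 9 vector libraries, so the cultures did not overlap at any dose.

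Eef1b2 and Eef1d encode exchange factor subunits that recharge eEF1A. Eef1b2 had 2180, 2086 and 2225 normalized counts at 0.2 µM in A53T cultures, against 5433 and 4982 in DMSO (-1.27 ± 0.25, adjusted p = 0.00089). Eef1d had 1327, 1321 and 1272, against 3177 and 2914 in DMSO (-1.22 ± 0.23, adjusted p = 0.00055). Both were at their lowest of the 17 libraries. At 2.0 µM in A53T cultures Eef1b2 had 10601, 7134 and 6870, against 5433 and 4982 in DMSO, and rose by 0.63 ± 0.19 (adjusted p = 0.021), a call lost without either DMSO library or without A53T at 2.0 µM replicate 1 (adjusted p up to 0.14). Among vector libraries it had 6534, 8025 and 6291 at 2.0 µM, against 5236, 5750 and 6069 in DMSO, and did not pass (0.28 ± 0.17, adjusted p = 0.19).

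The kinase gene Eef2k stayed between 859 and 1219 normalized counts and passed in no comparison. Eef2kmt, which encodes the methyltransferase of eEF2, had 57.5, 69.8 and 64.8 at 2.0 µM in vector cultures, against 38.7, 44.9 and 32.6 in DMSO, and rose by 0.72 ± 0.18 (adjusted p = 0.0048). In A53T cultures it had 68.6, 59 and 59.3, against 39.1 and 46.8 in DMSO, and just missed the threshold (0.53 ± 0.20, adjusted p = 0.051). Both sets of groups were without overlap. Of 7 measured enzymes that modify eEF2 or eIF5A, 4 rose and 1 fell at 2.0 µM in A53T cultures, and 3 rose and 3 fell in vector cultures. Of all genes 19.7% rose and 17.9% fell in A53T cultures, and 23.4% and 23.8% in vector cultures. The diphthamide enzyme gene Dph2 rose by 0.53 ± 0.09 in A53T cultures and by 0.65 ± 0.08 in vector cultures, while Dph1 fell by 0.51 ± 0.12 and 0.54 ± 0.11. Dhps, which starts the making of hypusine on eIF5A, fell in vector cultures by 0.69 ± 0.10 at 2.0 µM (adjusted p = 0.0001) and by 0.58 ± 0.10 at 0.2 µM (adjusted p = 0.0024).

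Other genes of the pathway were read from lists beside the 61, and their counts stand beside 19.7% higher and 17.9% lower of all genes at 2.0 µM in A53T cultures and 23.4% and 23.8% in vector cultures. Of 13 measured genes of mTOR, S6 kinase and MNK signalling to initiation, 1 rose and 2 fell at 2.0 µM in A53T cultures, and 6 rose and 4 fell in vector cultures. Mtor, the kinase that phosphorylates the 4E-BPs, fell by 0.37 ± 0.07 (adjusted p = 0.0029) in A53T cultures and by 0.61 ± 0.07 (adjusted p = 1.1e-05) in vector cultures. Of 9 termination, recycling and rescue factors 3 rose and 1 fell in A53T cultures, and 4 rose and 1 fell in vector cultures. Hbs1l, which rescues stalled ribosomes, rose by 0.64 ± 0.07 in A53T cultures and 0.48 ± 0.06 in vector cultures. Of 11 partners of initiation 4 rose and none fell in A53T cultures, and 2 rose and 1 fell in vector cultures, among them Pabpc1, the poly(A)-binding protein, by 0.38 ± 0.07 (adjusted p = 0.00058). Of 9 mitochondrial translation factors, which serve the separate ribosomes of that organelle, 3 rose and none fell in A53T cultures, and 1 rose and 3 fell in vector cultures.

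The libraries that stood apart differed from their groups in these genes in the direction opposite to the A53T libraries at 0.2 µM. Of the 34 genes that fell at 0.2 µM in A53T cultures, 31 were higher in A53T at 2.0 µM replicate 1 than in both other libraries of its group. The same held for 32 of the 34 in vector at 2.0 µM replicate 2 and for 33 in vector at 0.2 µM replicate 1. Of the 11 genes that rose, 11, 11 and 8 were below both other libraries of the group. Of all genes, whatever their call, 43.3%, 42.6% and 46.2% lay above both other libraries of the group, in the same order of libraries. Below both lay 41.6%, 43% and 38.9% of all genes. Across the 61 genes the deviation of each library from its group was set against the fold change at 0.2 µM in A53T cultures. Pearson r was -0.91, -0.91 and -0.90, against -0.66, -0.64 and -0.76 across all genes. Genes are not independent replicates, so no test is given. The A53T libraries at 0.2 µM also had a narrower spread of values, with an upper to lower quartile ratio of 8.05 to 8.06, against 10.1 to 15.7 in the other libraries. What sets these libraries apart was not tested.

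**Figure D4:**
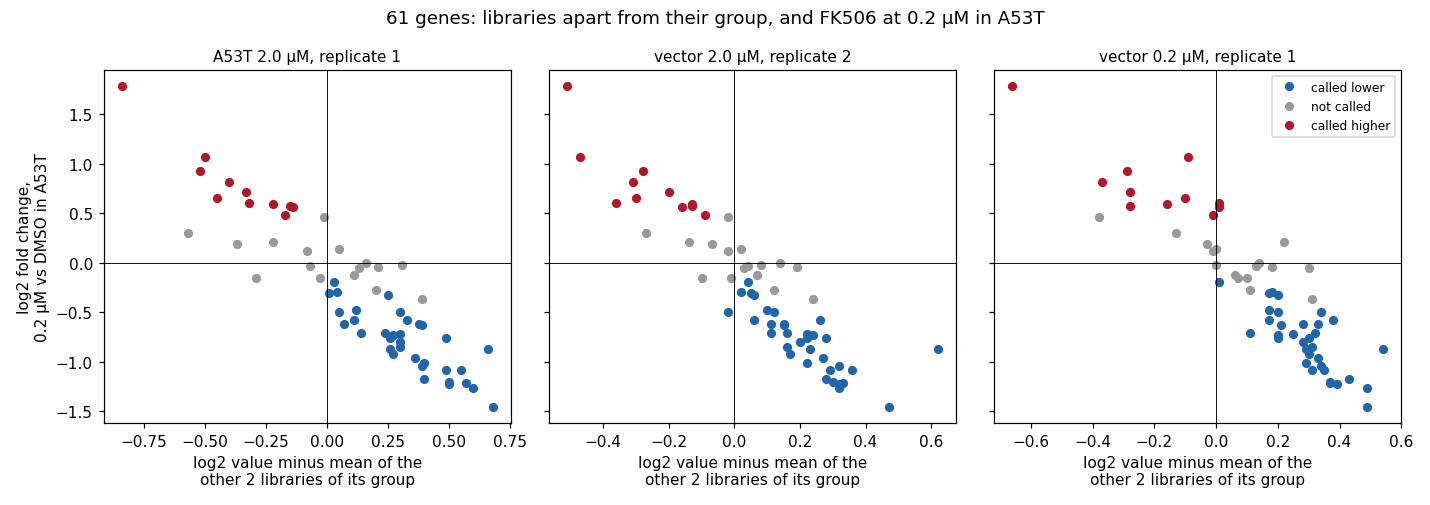
Log2 value of each of the 61 genes in a library that stood apart minus the mean of the other 2 libraries of its group (x axis, 1 panel per library), against its log2 fold change at 0.2 µM versus DMSO in A53T cultures (y axis), with genes called lower in blue, higher in red and not called in grey. In all 3 panels the points fall from upper left to lower right, with Pearson r of -0.91, -0.91 and -0.90.

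The sums of some cell type marker lists differed between treatments, and others overlapped. The summed value of the 10 astrocyte markers was 43083 to 47147 at 2.0 µM in A53T cultures, against 77263 to 80859 in DMSO, and 39518 to 41125 at 2.0 µM in vector cultures, against 90256 to 92581 in DMSO. That of the 11 pan-neuronal markers was 70669 to 84060 at 2.0 µM, against 77154 to 79157 in DMSO in A53T cultures, and 61775 to 65923, against 81908 to 87036 in vector cultures. At 0.2 µM the astrocyte sum was 53565 to 54046 in A53T cultures and 56575 to 61088 in vector cultures. A sum weighs abundant markers most. At 2.0 µM 2 of the 10 astrocyte markers rose and 5 fell in A53T cultures (median log2 fold change -0.38), beside 19.7% and 17.9% of all genes. In vector cultures 2 rose and 8 fell (median -0.83), beside 23.4% and 23.8% of all genes. At 0.2 µM the median of the 10 was 0.05 in A53T cultures and -0.26 in vector cultures. The 7 glutamatergic markers summed to 9892 to 10670 in DMSO, 15162 to 15604 at 0.2 µM and 3729 to 5699 at 2.0 µM in A53T cultures, and to 10757 to 12256, 9286 to 12770 and 6217 to 7712 in vector cultures. The 5 measured GABAergic markers summed to 10156 to 13089 at 2.0 µM, against 15534 to 15836 in DMSO in A53T cultures, and to 11476 to 13437, against 29632 to 33509 in vector cultures. At 0.2 µM the GABAergic sum was 10697 to 10735 in A53T cultures and 16556 to 18881 in vector cultures. In bulk samples such as these, fewer cells of a type and less RNA per cell cannot be told apart, and the part of these shifts in the values of the initiation and elongation factor genes was not tested.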

How the data were processed

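Per the labels' protocols, mRNA libraries were made with a stranded TruSeq kit. Per the submitters' processing notes, FastQC, TopHat, HTSeq and the rat build rn6 were used, without versions. The authors deposited 1 normalized count per gene and library, a signal value whose normalization method no source used here gives. These values are not whole reads, so no count model was run.

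Log2(value + 1) was fitted with limma 3.58.1 (empirical Bayes with trend) in R 4.3.3, with a mean per group, 15 samples and 9 residual degrees of freedom. The threshold was a Benjamini-Hochberg adjusted p of 0.05 over all 11247 genes in each of 8 comparisons. The model was tested on simulated data. Genes and lists were chosen with earlier results of these data known, and 1 further Eif gene is not analysed here. Named genes are those past the threshold without overlap and with the largest changes in each comparison (up to 4 rises and 4 falls, or 3 and 3 between doses and for the difference in response), and 21 central factors. From each list at most 3 genes per comparison were named, by smallest p. Alternatives changed the pseudocount, a filter on low values, the normalization, the libraries and the replicate block.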

Additional observations from a re-analysis of the deposited data

Results flagged for a closer look

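For 3 genes the response to 2.0 µM FK506 differed between A53T and vector cultures by a test of the difference itself (the interaction term in limma, Benjamini-Hochberg adjusted over all genes). Eif2s2 had a fold change higher in A53T by 0.33 ± 0.09 on the log2 scale (adjusted p = 0.025), lost on leaving out any of 5 libraries (adjusted p up to 0.10) and under quantile normalization (adjusted p = 0.059). Eif4b had a difference of -0.31 ± 0.07 (adjusted p = 0.011), lost without A53T in DMSO replicate 1 (adjusted p = 0.066). Eif4enif1 had a difference of -0.39 ± 0.12 (adjusted p = 0.049), lost on leaving out any of 11 libraries (adjusted p up to 0.20).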

How the results depend on the processing

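Counts are of the 61 genes called. In the count of genes called at 2.0 µM against DMSO in vector cultures (28) and at 0.2 µM against DMSO in A53T cultures (45), no alternative moved the count by over 1.5 times. At 2.0 µM against DMSO in A53T cultures (29) it was 7 with the replicate block by title numbers, 12 with only the groups compared, and 6 to 36 when single libraries were left out. At 2.0 µM against 0.2 µM in vector cultures (27) it was 41 without the 3 libraries that stood apart, and 19 to 37 without single libraries. At 0.2 µM against DMSO in vector cultures (3) it was 7 under quantile normalization, 5 with all 17 libraries as separate samples, 5 with the replicate block by column numbers, 34 without the 3 libraries, and 2 to 8 without single libraries. For A53T against vector in DMSO (5) it was 9 under quantile normalization, 1 with the replicate block by title numbers, 21 with only the groups compared, 22 without the 3 libraries, and 1 to 9 without single libraries. For A53T against vector at 2.0 µM (7) it was 14 with all 17 libraries, 2 with the replicate block by title numbers, 12 with that by column numbers, 2 with only the groups compared, 19 without the 3 libraries, and 2 to 12 without single libraries. For the difference in response (3) it was 5 with a mean value of at least 50, 5 under quantile normalization, 7 with all 17 libraries, 0 with the replicate block by title numbers, 7 with that by column numbers, 17 without the 3 libraries, and 0 to 9 without single libraries. Quantile normalization reversed Eef1a1 at 0.2 µM in vector cultures (0.492) and Eef2 at 0.2 µM in A53T cultures (0.351), and it fixes a gene's value by its rank. Otherwise the cause of these moves was not tested. Same-numbered libraries deviated together in some pairs of groups only (r from -0.51 to 0.669 over 35 pairs, 9 of them above 0.1; vector at 0.2 µM and A53T at 2.0 µM gave 0.669, 0.217 and 0.463), so the numbers were not taken to pair the samples. The block by title numbers gives no value at 0.2 µM in A53T cultures. Leaving out 1 treated library there does not test that arm, which counts as 1 sample. The block by column numbers was added after seeing the data. Since read depth is unknown, no counting intervals are given, and the ratios to sampling noise are approximate.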
